A study of Homo sapiens with 12 samples.

Results

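RPL13A, the gene for a protein of the large ribosomal subunit, carries a row of small nucleolar RNAs (snoRNAs) in its introns, named sno-U32A, sno-U33, sno-U34 and sno-U35A in the order of the gene. The members were taken by name from the snoRNA entries of both deposited tables of small noncoding RNA. Of the 4 names, 2 are listed, sno-U32A (gene SNORD32A, here U32A) and sno-U33 (gene SNORD33, here U33), among 287 snoRNAs in each table and among 1231 noncoding RNAs without and 1139 with LPS. The other names, sno-U34 and sno-U35A, were not analysed here.

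Small RNA was sequenced from Mono Mac 6 (MM6) cells, a human monocytic line, as 12 libraries in 4 groups of 3. The groups are wild-type cells and cells without ALOX5, the gene for 5-lipoxygenase (5-LO), each without and with LPS, the lipopolysaccharide of Gram-negative bacteria, which monocytes sense as a danger signal. The knockout (5-LOΔ, ALOX-5 -/- in the labels) was made with a lentiviral CRISPR/Cas9 vector followed by single-cell cloning, and the labels do not say which clone a library came from. All 4 groups, the wild-type groups included, had first been brought to differentiate for 72 h by calcitriol (50 nM) together with TGF-β (1 ng/mL), as the labels have it, and the LPS groups received 1 µg/mL LPS for 6 h. Messenger RNA was not measured, so neither the ALOX5 transcript, nor monocyte marker genes, nor the RPL13A mRNA could be checked in these libraries.

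Each deposited value is the mean of normalized read counts over the 3 libraries of a group, so there is 1 value per group, and neither a spread between replicates nor a test between groups could be computed from these means. The authors' own test results, which the tables also hold, were not used. Intervals given below are 95% counting intervals from recovered library depths. They cover the sampling of reads only and are narrow because these RNAs are abundant, so a difference beyond its counting interval is not shown to be beyond the spread between libraries. The tables without and with LPS share no library and were normalized separately.

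snoRNAs of the C/D box class guide the 2′-O-methylation of ribosomal RNA. They are cut out of introns of host genes, and the C and D boxes at their ends bind the proteins that protect them and carry the methyl transfer. RPL13A is a host of the terminal oligopyrimidine class, whose mRNAs follow the growth state of the cell. Apart from rRNA modification, the snoRNAs of this host are known for accumulating in the cytosol of cells under lipid overload or oxidative stress, and for a role in the response of macrophages to LPS. A table of reads does not tell nuclear from cytosolic RNA.

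The sequences of both listed members, read from GRCh37 (the same coordinates as the hg19 build of the labels), show the boxes that define the class. Capitals mark the C box letters TGATGA and the D box letters CTGA.
U32A: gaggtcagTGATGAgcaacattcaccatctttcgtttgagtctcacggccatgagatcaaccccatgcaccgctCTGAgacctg
U33: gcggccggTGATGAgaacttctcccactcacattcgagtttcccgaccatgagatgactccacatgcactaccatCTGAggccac
U32A lies at chr19:49993222-49993305 on the forward strand and is 84 nt long, and U33 lies at chr19:49993872-49993956 on the same strand and is 85 nt long. The host RPL13A runs from 49990767 to 49996314. In its canonical transcript of 8 exons, U32A is in intron 2, starting 42 nt after the exon before it and ending 183 nt before the next. U33 is in intron 4, 38 nt after the exon before it and 79 nt before the next. Of the 22 annotated RPL13A transcripts, 9 have an exon that overlaps U32A and 6 an exon that overlaps U33. Some or all of the same bases thus also occur in exons of annotated transcripts.

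U32A and U33 resemble each other, with 61 identical bases in 87 alignment columns (70.1%). In both the C box starts at base 9, and the D box starts at base 75 of U32A and base 76 of U33. Beyond the boxes they share the stretch CCATGAGAT in the middle (base 49 of U32A, base 47 of U33) and CATGCAC shortly before the D box (base 64 and base 63). The box letters are common among snoRNAs. Searched on the RNA strand only, 57.3% of 150 annotated snoRNAs of 80 to 90 nt hold both TGATGA and CTGA.

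A further annotated snoRNA, SNORD32B on chromosome 6 (29550026 to 29550109), is shown because it is close enough to U32A for reads to be shared. It has the same length, and capitals mark the 9 bases that differ from U32A.
SNORD32B: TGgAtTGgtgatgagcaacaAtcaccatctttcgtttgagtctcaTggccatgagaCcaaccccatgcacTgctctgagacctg
The longest run without a difference covers 24 nt, from base 22 to base 45. A read inside it would match both genes, and the sources used here do not give how such reads were assigned. The tables list no entry named U32B. An annotated SNORD33 copy on chromosome 16 (76503405 to 76503492, reverse strand) is more distant, with 58 identical bases in 96 alignment columns (60.4%) and no TGATGA. The counts of U32A are therefore uncertain by whatever SNORD32B contributed, and this was not tested.

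U32A was one of the abundant snoRNAs of MM6 cells in every group. The authors' mean was 76896 normalized counts for wild-type and 79894 for 5-LOΔ cells without LPS, and 68967 and 70040 with LPS. It ranked 22 and 20 of 287 snoRNAs without LPS and 22 and 19 with LPS. Against the sum of all snoRNAs, U32A held 1.11% in wild-type cells without LPS, 1.11% in 5-LOΔ cells without LPS, 1.11% in wild-type cells with LPS and 1.14% in 5-LOΔ cells with LPS.

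U33 was several times less abundant and varied more between the genotypes. The authors' mean was 13244 normalized counts for wild-type and 16771 for 5-LOΔ cells without LPS, and 11834 and 12974 with LPS. Its rank among the 287 snoRNAs was 52 and 43 without LPS and 50 and 44 with LPS. Its share of the snoRNA sum was 0.191% in wild-type and 0.232% in 5-LOΔ cells without LPS, and 0.190% and 0.212% with LPS. In both tables the wild-type share was thus lower than the knockout share. Together, both members made up 1.30% of the snoRNA sum in wild-type and 1.34% in 5-LOΔ cells without LPS, and 1.30% and 1.36% with LPS.

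The snoRNAs as a class made up 64.4% and 59.4% of all summed means in wild-type and 5-LOΔ cells without LPS and 64.2% and 60.2% with LPS. The median snoRNA was between 562 and 641 normalized counts in the 4 groups, so both members stood well above it. The library window of 4 to 134 nt of insert takes in both full-length snoRNAs as well as fragments of them, and the tables do not tell these apart.

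U35B (SNORD35B), the paralog of sno-U35A, does not come from RPL13A and serves for comparison. Its means were 2319 normalized counts for wild-type and 2317 for 5-LOΔ cells without LPS, and 1980 and 2027 with LPS. Both RPL13A members were above it in every group.

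**Figure D1:**
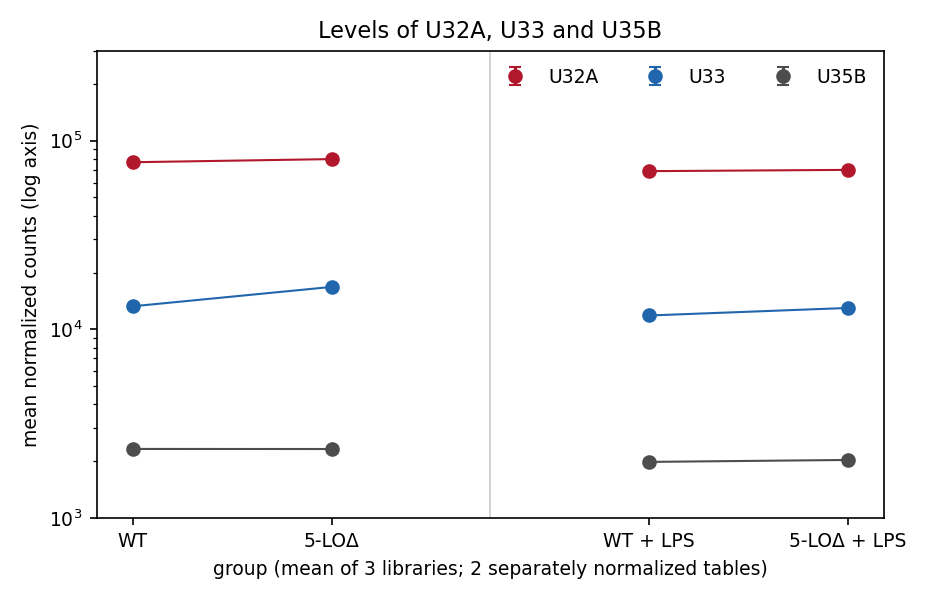
Mean normalized counts of U32A, U33 and U35B (log axis) in the 4 groups, each point the authors' mean of 3 libraries with its 95% counting interval, lines joining the genotypes within a table. U32A (68967 to 79894) lies above U33 (11834 to 16771) and U33 above U35B (1980 to 2319) in all 4 groups, and the step from wild-type to 5-LOΔ is widest for U33 without LPS.

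The first comparison asks whether loss of 5-LO goes with another level of these snoRNAs. Without LPS, U33 was 1.27-fold higher in 5-LOΔ than in wild-type cells, a log2 difference of 0.34 (counting SE 0.0097, interval 0.32 to 0.36). U32A from the same host differed by 0.055 on the log2 scale (counting SE 0.0042, interval 0.047 to 0.063), a fold of 1.04. U35B differed by -0.0012 (interval -0.050 to 0.047), which is within the counting error.

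These differences can be read against those of the other snoRNAs. Neither of the 2 members was past 1.5-fold, while 18.9% of the 275 snoRNAs with both means of at least 10 were past it in either direction. Both members had a log2 difference above 0, as did 56.0% of these snoRNAs. The median over all of them was 0.048, with quartiles of -0.25 and 0.36. U32A lay almost on the median, with 140 snoRNAs below and 134 above it. U33 lay in the upper part but inside the quartiles, with 202 below and 72 above. Near-identical entries count separately here. The HBII-52 copies among them all lay above U32A and most lay above U33. The positions were not recomputed without these copies. Among the 123 snoRNAs with both means of at least 1000, a minimum chosen after seeing the data, the quartiles were -0.34 and 0.24, and U33 lay above the upper one, with 98 below it. U32A lay inside them, with 74 below it. The median of both members was 0.20.

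With LPS, U33 was again farther from 0 than U32A, and on the deposited scale the differences of both members were smaller. U33 was 1.10-fold higher in 5-LOΔ than in wild-type cells, a log2 difference of 0.13 (counting SE 0.011, interval 0.11 to 0.15). For U32A the log2 difference was 0.022 (interval 0.013 to 0.031), and for U35B it was 0.034 (interval -0.019 to 0.086). Again neither member was past 1.5-fold, against 20.9% of 273 snoRNAs in either direction, and both were above 0, as were 51.3%. U32A was itself the median of the snoRNAs in this table, with 136 below and 136 above it. The separately counted HBII-52 copies were all among those above it, and this position was not recomputed without them. U33 had 155 below and 117 above. Among the 117 snoRNAs with both means of at least 1000, U33 had 88 below it and lay just above the upper quartile of 0.12, and U32A had 74 below it. The median of both members was 0.078.

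From the table without LPS to that with LPS, the knockout difference of U33 was lower by 0.21 on the log2 scale (counting interval of this change -0.24 to -0.18), and that of U32A was lower by 0.033 (-0.045 to -0.021) on the deposited scale. The direction for U32A depends on the scaling, with a change of 0.048 with equal snoRNA sums and 0.071 with equal sums of all noncoding RNAs. For U33 the change was below 0 under each scaling, and was -0.10 with equal sums of all noncoding RNAs. The same change had a median of 0.0026 over 273 snoRNAs, and 61 of them had a lower one than U33. Whether LPS alters the knockout difference beyond the spread between libraries was not tested, since the tables hold no values of single libraries.

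Another scaling shifts both members by the same amount, which under some scalings turns the sign of the small U32A difference. With equal sums of all noncoding RNAs, U32A became lower in 5-LOΔ cells, with log2 differences of -0.12 without and -0.048 with LPS, while with equal snoRNA sums it was at -0.0038 without and 0.044 with LPS. Centred on the snoRNA median, it was at 0.0069 without and 0 with LPS. U33 was above 0 in both tables under each of the scalings, pseudocounts and minimum means tried, from 0.17 to 0.34 without LPS and from 0.062 to 0.15 with LPS.

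Other host genes give a scale for these values. The lists hold snoRNAs from introns of other ribosomal protein genes, of which 26 of 38 names are listed, of GAS5 (10 of 10) and of SNHG1 (8 of 8), GAS5 and SNHG1 being noncoding hosts of the same oligopyrimidine class. Without LPS, the median log2 difference of knockout against wild type was -0.070 for the other ribosomal protein genes, -0.35 for GAS5 and -0.11 for SNHG1. The number above 0 was 11 of 26, 1 of 10 and 2 of 8, and the number past 1.5-fold in either direction was 4, 1 and 0. With LPS, the medians were -0.14, -0.18 and 0.0058, with 9 of 26, 1 of 10 and 4 of 8 above 0 and 1, 2 and 0 past 1.5-fold. The RPL13A members were thus above the medians of these lists in both tables. Members of one host share a transcript, and whether RPL13A differs from these hosts was not tested.

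**Figure D2:**
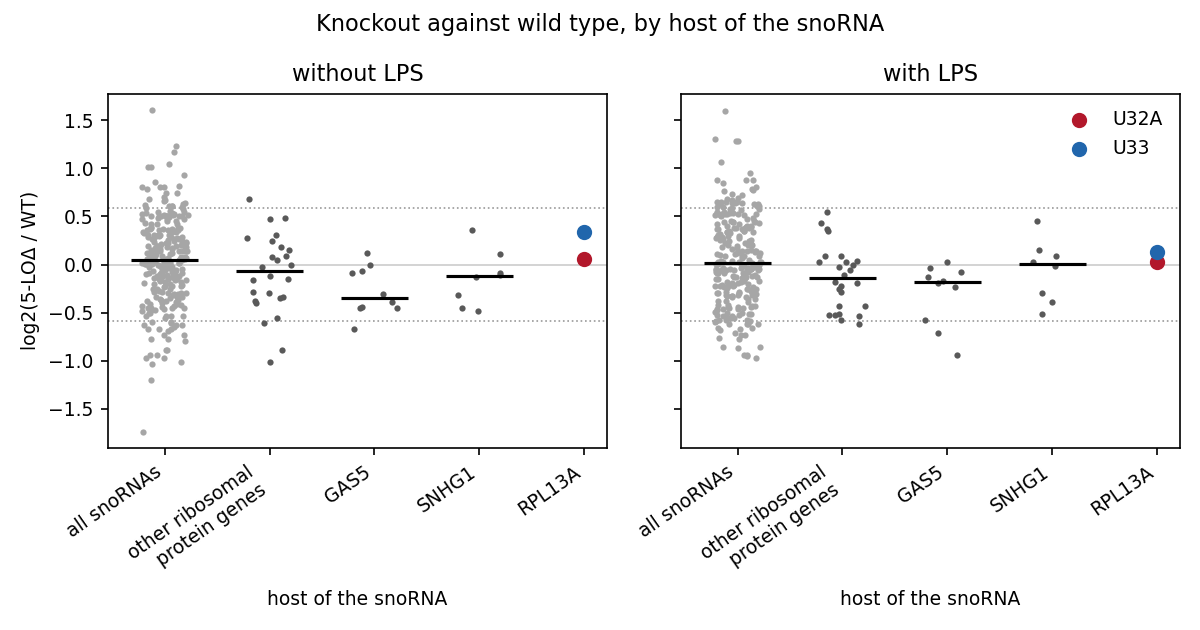
Log2 ratio of the 5-LOΔ to the wild-type mean for snoRNAs with both means of at least 10, without LPS (left) and with LPS (right), by host gene. Each grey or dark point is a snoRNA, black bars are medians, coloured points are U32A and U33, and dotted lines mark 1.5-fold. U32A sits at the median of all snoRNAs and U33 above it (0.34 and 0.13), both inside the dotted lines.

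The balance between the members does not depend on the scaling between groups, because both are read in the same libraries. U32A was 5.81 times U33 in wild-type cells without LPS (counting interval 5.75 to 5.87) and 5.83 times (5.76 to 5.89) in wild-type cells with LPS. In 5-LOΔ cells it was 4.76 times (4.72 to 4.81) without LPS and 5.40 times (5.34 to 5.46) with LPS. Per 100 nt of length the ratios were 5.88, 5.90, 4.82 and 5.46 in the same order, since the lengths differ by 1 base. The wild-type groups are alike within the counting error, and both 5-LOΔ groups are below them. The ratio of U33 to U32A was higher in 5-LOΔ than in wild-type cells by a log2 change of 0.29 (0.26 to 0.31) without and 0.11 (0.088 to 0.13) with LPS. Against U35B, U33 was higher by 0.34 (0.29 to 0.39) and 0.099 (0.042 to 0.16), whereas for U32A against U35B the change was 0.056 (0.0074 to 0.11) without LPS and -0.012 (-0.065 to 0.042) with LPS.

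**Figure D3:**
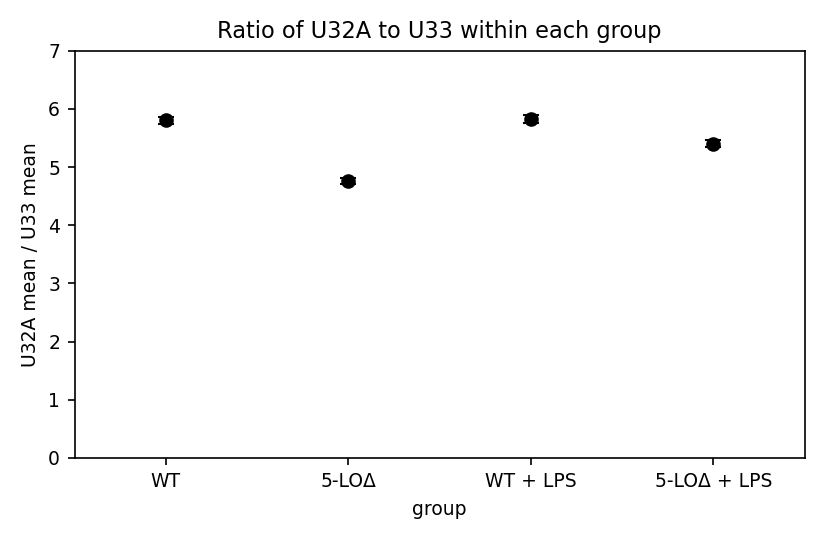
Ratio of the U32A mean to the U33 mean in each group (linear axis from 0), with 95% counting intervals. The wild-type groups are at 5.81 and 5.83, the 5-LOΔ groups at 4.76 without LPS and 5.40 with LPS.

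Unequal levels from a shared host are common in these tables. Of the ribosomal protein genes with at least 2 listed snoRNAs that the annotation places inside the host, 6 could be compared. The highest level per length of a host was 5.88 times its lowest in wild-type cells without LPS for RPL13A, and between 1.03 times (U14A and U14B of RPS13) and 170 times (U100 and U101 of RPS12) for the other 5. The gap between the knockout differences within a host was 0.29 on the log2 scale for RPL13A without LPS and ran from 0.30 to 0.80 for the other 5. With LPS it was 0.11 for RPL13A and 0.087 to 0.71 for the others.

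The second comparison concerns LPS. As the tables were normalized separately, and as the snoRNA median was lower with LPS by 0.19 on the log2 scale in both genotypes, each value is given relative to the median of 273 snoRNAs with a mean of at least 10 in all 4 groups. In wild-type cells U32A differed from that median by 0.035 (counting interval 0.027 to 0.044) and U33 by 0.030 (0.0095 to 0.051). These are folds of 1.02 for each. U35B was at -0.036 (-0.085 to 0.014). Neither member was past 1.5-fold, against 1.10% of the snoRNAs, and both were above 0, as were 49.8%. The last share is fixed by the centring on the median and is not a result. The quartiles of all snoRNAs were close by, at -0.048 and 0.059. Among the 116 snoRNAs with all 4 means of at least 1000, the members were also inside the quartiles of -0.039 and 0.036, at 0.026 for U32A and 0.021 for U33.

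In 5-LOΔ cells, U32A again stayed near the median, at -0.0025 (-0.011 to 0.0062), while U33 was lower with LPS by a log2 difference of -0.18 (-0.20 to -0.16), a fold of 0.881. U35B was at -0.0055 (-0.057 to 0.046). Of the 273 snoRNAs, 6.96% were past 1.5-fold, neither member among them. The 49.8% above 0, a share again fixed by the centring, held neither member. The snoRNAs spread more widely in 5-LOΔ than in wild-type cells, with quartiles of -0.18 and 0.19, and 70 were lower than U33 and 202 higher. Among the 116 snoRNAs with all 4 means of at least 1000, U33 was at -0.13 relative to their median, inside the quartiles of -0.22 and 0.15, with 42 below it. The ratio of U33 to U32A was lower with LPS by a log2 change of -0.18 (-0.20 to -0.16) in 5-LOΔ cells, and its change was -0.0054 (-0.028 to 0.017) in wild-type cells. The sign of the small values depends on the scaling. As a share of the snoRNA sum, U32A was at -0.0010 and U33 at -0.0064 in wild-type cells, and U32A was at 0.047 in 5-LOΔ cells. U33 in 5-LOΔ cells was below 0 under each setting tried, from -0.37 to -0.11. These LPS values and the knockout differences above come from the same 4 means and are not separate evidence.

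For the host lists, the median LPS difference in wild-type cells was 0.021 for the other ribosomal protein genes, -0.027 for GAS5 and -0.00086 for SNHG1, with 0 members of any list past 1.5-fold. In 5-LOΔ cells the medians were -0.023, 0.015 and 0.069, with 1, 1 and 2 members past 1.5-fold.

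**Figure D4:**
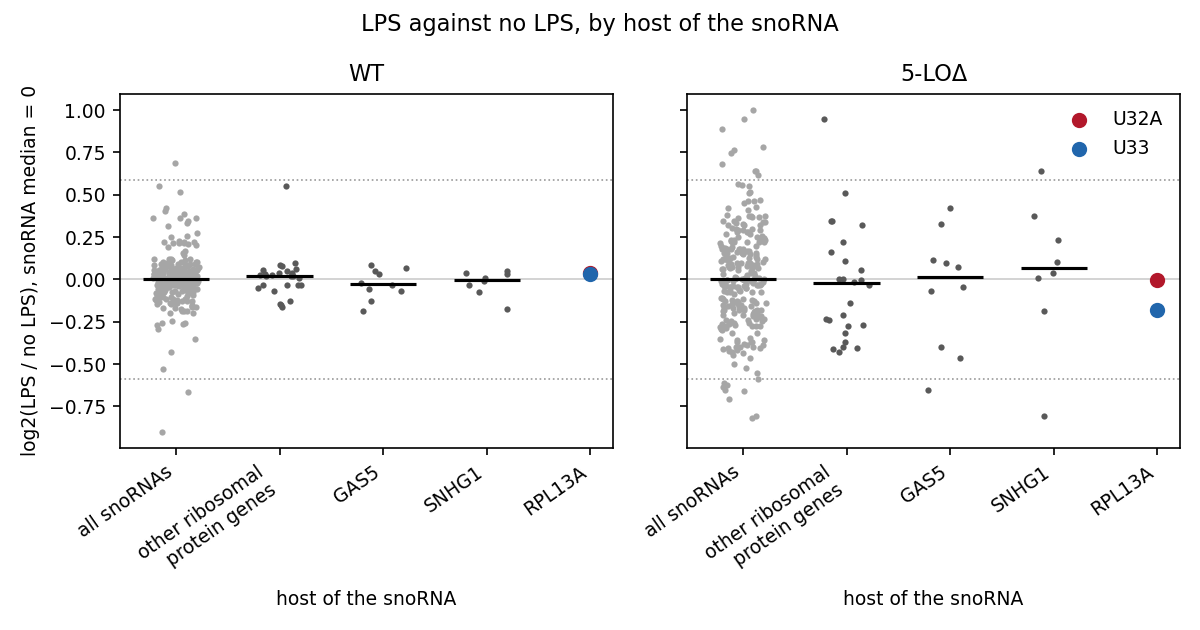
Log2 ratio of the mean with LPS to the mean without LPS, set to 0 at the median of 273 snoRNAs, in wild-type (left) and 5-LOΔ cells (right), by host gene. Points, bars and dotted lines are as for the genotype comparison. In wild-type cells U32A and U33 coincide near 0, and in 5-LOΔ cells U33 is at -0.18 with U32A near 0.

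The snoRNAs of likest pattern were sought among 271 others, by the largest absolute gap to the member median over the knockout differences without and with LPS and the LPS difference in wild-type cells, each relative to the snoRNA median. The nearest 3 were U46 (largest gap 0.053), U49B (0.056) and ACA34, a snoRNA of the H/ACA class (0.062). U46 had 56713 and 64270 normalized counts in wild-type and 5-LOΔ cells without LPS and 50274 and 51152 with LPS. U32A and U33 themselves were each 0.14 from their shared median, farther than these 3. The likeness rests on 4 means.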

How the data were processed

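Small RNA libraries were made by the authors from total RNA, pooled, size-selected on a gel and sequenced. Reads were trimmed and annotated against hg19 with omiRas by the authors, who deposited a table without and a table with LPS. The sources used here do not give its aligner, version or scaling. The signal columns deposited by the authors hold the mean of normalized counts over the 3 libraries of a genotype. The tables also hold the authors' own log2 fold changes, p-values and false discovery rates, which were not used.

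Log2 ratios were computed from these means with no pseudocount. Means of at most 10 all came out as whole reads in 1 way, which gave the size factor of each library and from it Poisson counting intervals at 95%. Tables were then simulated with Poisson counts at these size factors and 200 changed RNAs each. The intervals covered the true change for 94.9% of the 194 changed RNAs that passed the minimum mean of 10 without LPS. With LPS it was 96.4% of 192. Over all RNAs that passed, coverage was 93.7% without and 95.6% with LPS. Such simulated counts hold no spread between libraries, so this checks the calculation only. No molecular identifiers are shown, so intervals cover counting error only, and single libraries could not be recovered for means of this size. The background is all snoRNAs with a mean of at least 10, and several snoRNA entries are near-identical copies. Members, comparison lists and the rule for named snoRNAs (both members, U35B, the 3 of likest pattern) were chosen with earlier results of these data known. No test could be computed from 1 mean per group. Positions count from 1 and come from GRCh37 with the lifted GENCODE annotation. Python 3.11.15, numpy 2.4.6, pandas 2.3.3, Biopython 1.88 and matplotlib 3.10.9 were used.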

Additional observations from a re-analysis of the deposited data

How the results depend on the processing

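The median of both members, knockout against wild type, was 0.20 on the log2 scale without LPS and 0.078 with LPS. It became 0.023 and 0.0070 with equal sums of all noncoding RNAs, 0.14 and 0.10 with equal snoRNA sums, and 0.15 and 0.055 when centred on the snoRNA median. The LPS value of the pair was 0.033 in wild-type and -0.093 in 5-LOΔ cells. It became -0.0037 and -0.043 as a share of the snoRNA sum, -0.0076 and -0.024 as a share of all noncoding RNAs, and -0.16 and -0.28 on the deposited scale. With a minimum mean of 1000, an alternative chosen after seeing the data, it was -0.040 in 5-LOΔ cells. Under every one of these settings 0 of the 2 members were past 1.5-fold. With that minimum, 19 of 123 snoRNAs without LPS (15.4%) and 16 of 117 with LPS (13.7%) were past 1.5-fold between the genotypes. With the minimum of 10, these were 52 of 275 (18.9%) and 57 of 273 (20.9%). Between the LPS states, 0 of 116 in wild-type and 4 of 116 (3.45%) in 5-LOΔ cells were past it. With the minimum of 10, these were 3 (1.10%) and 19 (6.96%) of 273. For wild-type cells the count between the LPS states was 7 with all means above 0 and 0 with a pseudocount of 10. Leaving out each library was not run, because means of this size do not give single libraries. No paired analysis was possible because the columns are means that carry no replicate number. Depth limits the smallest differences, several of which, U35B's included, have counting intervals that include 0, and the spread between libraries is unknown.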
